A study of Mus musculus with 6 samples.

Results

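Pcp4, Pcp4l1 and Nrgn are 3 of the 18560 genes in the count table of single cells from the mouse olfactory bulb, taken by their symbols because each encodes a small regulator of calmodulin, and their counts are described here across 18 neuronal and 22 nonneuronal clusters. Cells came from adult C57BL/6NJ mice of both sexes at 14 weeks of age, and the RNA of 51426 cells with a cluster was counted by unique molecular identifiers (UMIs), 1 for each captured transcript molecule, with 3' end chemistry in droplets. Each of 6 libraries pooled 3 mice, and there were 2 libraries in each of 3 groups: control, naris occlusion for 6 weeks, which deprives the bulb of that side of odor input, and olfactory training for 6 weeks, in which mice learned to discriminate odors. All mice were wild type and carried no transgene, the tissue included some olfactory epithelium next to the bulb, and the study describes its controls both as naive mice and as the open side of occluded mice, so the control and occluded libraries may share animals.

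Calmodulin is the main calcium sensor of neurons, and it acts by binding kinases, phosphatases, cyclases and channels when calcium rises. Pcp4 (Purkinje cell protein, also PEP-19), its close relative Pcp4l1 and neurogranin (Nrgn) each hold an IQ motif, a short stretch through which proteins bind calmodulin. Pcp4 speeds the exchange of calcium on calmodulin, and neurogranin holds calmodulin at low calcium in dendrites and spines, where it is best known from forebrain principal neurons. In the bulb, granule cells and periglomerular cells are inhibitory interneurons, many of them born in adult life, and mitral and tufted cells are the excitatory output neurons.

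The coding sequences of the 3 genes are shown in full because the motif that defines the group can be read from them. They are the protein-coding transcripts of GENCODE release M1, written 5' to 3' with the codons that match the IQ motif in capitals.
Pcp4: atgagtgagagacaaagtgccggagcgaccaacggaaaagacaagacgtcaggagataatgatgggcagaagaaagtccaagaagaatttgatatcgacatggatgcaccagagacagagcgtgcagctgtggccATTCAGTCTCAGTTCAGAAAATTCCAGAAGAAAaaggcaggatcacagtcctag
Pcp4l1: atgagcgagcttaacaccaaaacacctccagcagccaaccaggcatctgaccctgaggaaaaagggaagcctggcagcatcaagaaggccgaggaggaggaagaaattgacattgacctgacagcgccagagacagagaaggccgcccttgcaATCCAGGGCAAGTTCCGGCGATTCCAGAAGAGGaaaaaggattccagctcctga
Nrgn: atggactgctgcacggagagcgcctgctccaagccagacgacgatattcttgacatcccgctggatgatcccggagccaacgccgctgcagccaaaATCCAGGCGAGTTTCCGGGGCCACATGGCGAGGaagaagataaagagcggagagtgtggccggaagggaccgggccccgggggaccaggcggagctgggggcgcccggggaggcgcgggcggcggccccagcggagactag
The motif spanned 33 bases in each gene and ended 6 codons before the stop in both Pcp4 (codons 46 to 56 of 62) and Pcp4l1 (codons 52 to 62 of 68), whereas it lay in the middle of Nrgn (codons 33 to 43 of 78). Within the motif, Pcp4 and Pcp4l1 shared 22 of 33 bases, Pcp4l1 and Nrgn 21, and Pcp4 and Nrgn 14. The longest run shared between any 2 of the 3 transcripts was 12 bases, which is far below the length of a read, so the counts of 1 gene should not hold reads of another. In RefSeq on GRCm38.p6, the assembly of the mm10 build named in the submitters' processing notes, Pcp4 lies at chr16:96467606-96525793, Pcp4l1 at chr1:171173264-171196268 and Nrgn at chr9:37544493-37552745.

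The libraries held between 6705 and 10570 cells with a cluster and between 11841160 and 17065083 UMIs, with a median of 1028 to 1723.5 UMIs per cell and a median mitochondrial share of 9.25 to 14.4%. The lowest depth per cell and the highest mitochondrial share were both those of trained replicate 1. Of 49931 barcode sequences, 1461 (2.93%) occurred in 2 or more libraries. Replicate number and sex cannot be told apart, since Xist had at least 20000 UMIs in replicate 2 and at most 5 in replicate 1 of every group, and the Y-linked Ddx3y had at least 1116 UMIs in replicate 1 and 0 in replicate 2. In the trained group, 17275 cells carry a name that starts with the code of the other replicate, and their replicate was taken from the annotated library, a choice that leaves the group the same.

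Levels below are CPM, the UMIs of a gene summed over the cells of 1 cluster in 1 library and scaled to the same total in every library, as mean ± SD over 6 libraries. The authors' clusters were built from all genes, these 3 included, so levels of clusters are a description with no test. Because a 3' tag is counted once per molecule whatever the length of the transcript, but may be captured with a different yield for each gene, levels are compared between clusters and not between the genes. Where all libraries of 1 group lie above or below those of another, here and below, the share of all genes in that order was not counted. With 2 libraries per group such an order can arise by chance.

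Pcp4 was highest in the granule cell clusters n11-GC-5, n10-GC-4 and n12-GC-6. In n11-GC-5 the level was 6255 and 6888 CPM in the control libraries, 6378 and 6850 in the occluded and 7826 and 7202 in the trained libraries, 6900 ± 573 CPM in all. In n10-GC-4 it was 5069 and 8916 CPM in control, 5391 and 5689 in occluded and 2650 and 8198 in trained libraries, and the mean was 5985 ± 2275 CPM. In n12-GC-6 it was 3975 and 4543, 4037 and 5517, and 6493 and 6329 CPM in the same order, 5149 ± 1124 CPM. Both trained libraries lay above the other 4 libraries in n11-GC-5 and n12-GC-6, whereas in n10-GC-4 trained replicate 1 was the lowest and trained replicate 2 the second highest. The steps from n11-GC-5 to n10-GC-4 and from there to n12-GC-6 did not exceed the SD of the differences within libraries, and n10-GC-4 stood above n11-GC-5 in control replicate 2 and trained replicate 2.

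The next level was that of n13-AstrocyteLike, a cluster of the neuronal annotation, with 2825 ± 464 CPM, and this was below n12-GC-6 in 6 of 6 libraries by 2323 ± 1133 CPM. It was followed by n14-GC-7 with 1928 ± 299 CPM, n09-GC-3 with 1585 ± 249, n18-EPL-IN with 1470 ± 603, n07-GC-2 with 1439 ± 293, n06-Transition with 1348 ± 295 and n17-M/TC-3 with 1115 ± 563. Of the steps in this order, those from n12-GC-6 to n13-AstrocyteLike, from there to n14-GC-7 and from n17-M/TC-3 to n01-OSNs exceeded the SD within libraries. The other 8 clusters held 783 CPM or less, down to 377 ± 109 CPM in n02-PGC-1, the lowest.

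**Figure D1:**
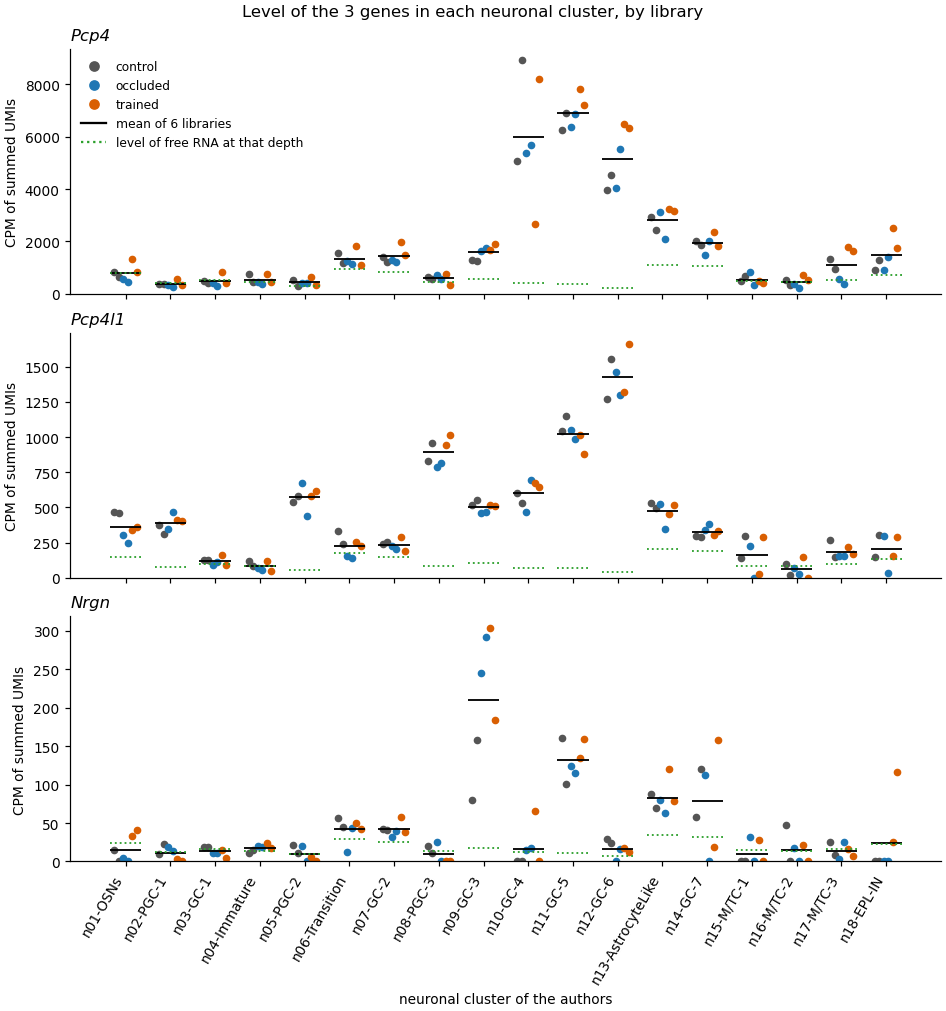
CPM of Pcp4, Pcp4l1 and Nrgn (y axes, each with its own range) in the 18 neuronal clusters (x axis), with 1 point for each of the 6 libraries, a black bar for their mean and a green dotted bar for the level that free RNA would give at the depth of the cluster. Pcp4 stands out in n10-GC-4, n11-GC-5 and n12-GC-6, Pcp4l1 also in n08-PGC-3, and Nrgn in n09-GC-3 and n11-GC-5 but not in n10-GC-4 or n12-GC-6.

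The 3 clusters with the highest Pcp4 differed in how the UMIs were spread over cells. After each cell was thinned to 500 UMIs, 86.1% of the 1669 cells of n11-GC-5 (83.6 to 92.4% over libraries) and 83.1% of the 237 cells of n12-GC-6 (69.6 to 92.5%) still held a Pcp4 UMI, against 52.6% of the 234 cells of n10-GC-4 (39.3 to 65.6%). The median cell held 3 Pcp4 UMIs of 500 in n11-GC-5, 2 in n12-GC-6 and 1 in n10-GC-4. At the upper end the order turned, since 8.97% of the cells of n10-GC-4 held 10 or more Pcp4 UMIs of 500, against 4.73% in n11-GC-5 and 2.53% in n12-GC-6. In n10-GC-4 47.4% of the cells held no Pcp4 UMI among the 500 drawn, and 69.7% of all its cells held a Pcp4 UMI before thinning. A count of 0 at this depth does not show that a cell lacks Pcp4, and a single UMI may be free RNA. Without thinning, 97.3% of the cells of n11-GC-5 held a Pcp4 UMI at a median depth of 2110 UMIs, but so did 51.6% of red blood cells at a median of 3894, a cell type that should lack the gene.

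The UMIs of these neuronal genes in nonneuronal cells were taken as the level of free RNA, which droplets take up from lysed cells. Over the 18 nonneuronal clusters other than the endothelial and mural clusters, Pcp4 held 0.704 to 1.07 UMIs per cell (median 0.783), although the median depth of these clusters ran from 708.5 to 3894 UMIs. Pcp4l1 held 0.113 to 0.198 UMIs per cell (median 0.152) and Nrgn 0.0043 to 0.0548 (median 0.0255). The UMIs per cell of Pcp4 and Pcp4l1 thus varied less between these clusters than the depth did, so that the same number is a larger CPM in shallow cells, whereas those of Nrgn varied more. The highest Pcp4 was that of OPC, which lay above the free RNA of its library in 6 of 6 libraries by 0.277 ± 0.138 UMIs per cell. The free RNA differed between libraries, with 0.916 and 0.711 Pcp4 UMIs per cell in the control, 0.783 and 0.444 in the occluded and 1.10 and 0.794 in the trained libraries.

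**Figure D2:**
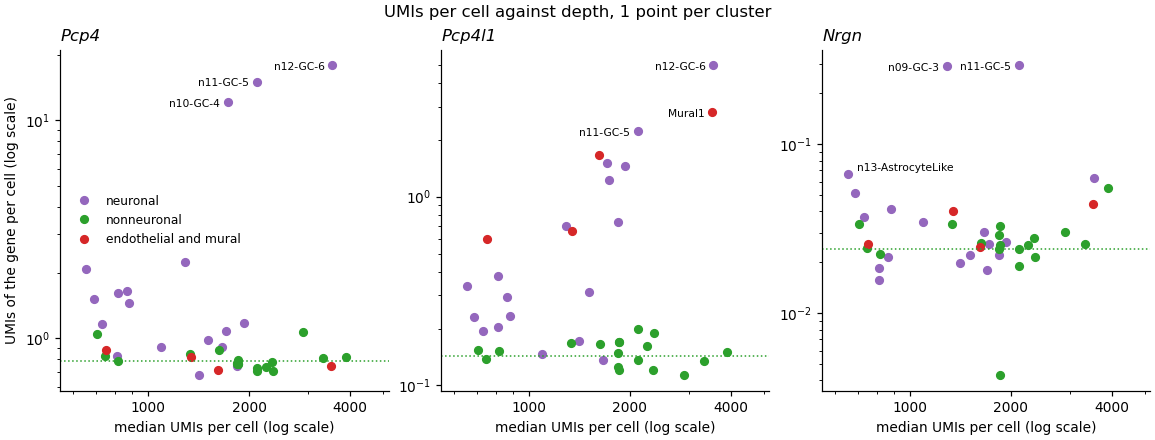
UMIs per cell of Pcp4, Pcp4l1 and Nrgn (y axes, log scale) against the median UMIs per cell (x axes, log scale), with 1 point per cluster, purple for neuronal, green for nonneuronal and red for endothelial and mural clusters. The dotted line is the level of free RNA averaged over libraries, near which the green points of Pcp4 and Pcp4l1 lie, and the red points rise above it for Pcp4l1.

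Set against the free RNA of the same library, 11 of the 18 neuronal clusters lay above it for Pcp4 in 6 of 6 libraries, 14 for Pcp4l1 and 4 for Nrgn (n07-GC-2, n09-GC-3, n11-GC-5 and n13-AstrocyteLike). After the free RNA was subtracted, Pcp4 stood at 6537 ± 519 CPM in n11-GC-5, 5586 ± 2379 in n10-GC-4, 4926 ± 1103 in n12-GC-6, 1715 ± 333 in n13-AstrocyteLike, 1010 ± 361 in n09-GC-3 and 78.4 ± 65.4 in n04-Immature. In n01-OSNs, n02-PGC-1 and n03-GC-1 the mean of Pcp4 was below the free RNA, so Pcp4 was not detectable above background there. The endothelial cluster EC1 lay below the free RNA for Pcp4 in 6 of 6 libraries.

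Pcp4l1 was highest in n12-GC-6, with 1270 and 1557 CPM in control, 1461 and 1302 in occluded and 1318 and 1659 in trained libraries, 1428 ± 158 CPM in all. It was followed by n11-GC-5 with 1020 ± 88.1 CPM and by the periglomerular cluster n08-PGC-3 with 891 ± 90.3 CPM. The groups overlapped in n12-GC-6, and the step from n12-GC-6 to n11-GC-5 exceeded the SD within libraries. Below n08-PGC-3 came n10-GC-4 with 602 ± 89.2 CPM and n05-PGC-2 with 571 CPM, and again the first of these steps exceeded that SD. The median cell of n12-GC-6 held 1 Pcp4l1 UMI of 500 and that of n11-GC-5 none. Without thinning, 97.0% of the cells of n12-GC-6 held a Pcp4l1 UMI at a median depth of 3533 UMIs, against 13.2% of red blood cells.

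The ratio of both relatives thus changed from cluster to cluster. Per 100 Pcp4 UMIs there were 14.8 Pcp4l1 UMIs in n11-GC-5 (12.2 to 16.7 over libraries), 27.8 in n12-GC-6 (20.3 to 36.2) and 10.1 in n10-GC-4 (5.93 to 25.4). In the periglomerular clusters it was 141 in n08-PGC-3 (113 to 300.0), 124 in n05-PGC-2 (89.4 to 187) and 98.7 in n02-PGC-1 (70.4 to 178). Most of the Pcp4 UMIs of the periglomerular clusters were at the level of free RNA, since after its subtraction -0.06 ± 0.09 Pcp4 UMIs per cell were left in n02-PGC-1, 0.37 ± 0.27 in n05-PGC-2 and 0.26 ± 0.23 in n08-PGC-3. Pcp4l1 kept 0.60 ± 0.09, 1.35 ± 0.22 and 1.44 ± 0.26 UMIs per cell in the same order, so these ratios depend on whether the free RNA is subtracted. In the 18 nonneuronal clusters without vessel cells the ratio was 10.6 to 27.1 with a median of 19.1.

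Pcp4l1 was also present in cells of blood vessels. In EC1, whose cells held the endothelial markers Cldn5 (7156 CPM) and Slco1c1 (901 CPM), Pcp4l1 was 967 and 950 CPM in control, 894 and 854 in occluded and 788 and 925 in trained libraries, and it remained at 820 ± 72.4 CPM after the free RNA was subtracted. In Mural1, with the mural markers Pdgfrb (668 CPM) and Acta2 (260 CPM) beside Cldn5 at 3465 CPM, it was 726 ± 87.2 CPM, in EC2 560 ± 77.6 and in Mural2 436 ± 42.0, whereas the next nonneuronal cluster, Astro3, had 180 ± 59.1 CPM. The ratio was 232 Pcp4l1 UMIs per 100 Pcp4 UMIs in EC1 (142 to 367 over libraries) and 375 in Mural1 (193 to 488), both outside the range of the other nonneuronal clusters. A Pcp4l1 UMI was found in 67.6% of the cells of EC1 and 83.5% of those of Mural1.

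Nrgn was sparse and had another pattern. Its highest mean was in n09-GC-3, with 80.0 and 158 CPM in control, 245 and 292 in occluded and 304 and 184 in trained libraries, 210 ± 86.0 CPM from 79 UMIs in 273 cells. In n11-GC-5 it was 161 and 100 CPM, 124 and 116, and 135 and 159, 133 ± 24.2 CPM from 489 UMIs. Both occluded and both trained libraries lay above the control libraries in n09-GC-3, but the order of n09-GC-3 and n11-GC-5 did not hold beyond the spread within libraries, and in the control libraries alone n09-GC-3 was second with 119 CPM. An Nrgn UMI was found in 18.3% of the cells of n09-GC-3 and 18.8% of those of n11-GC-5, against 4.11% of red blood cells.

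Nrgn was thus near background in a pair of clusters with the most Pcp4. It held 15 UMIs in n12-GC-6 (16.7 ± 10.1 CPM) and 6 UMIs in n10-GC-4 (16.3 ± 25.2 CPM), and in n12-GC-6 9.93 ± 10.1 CPM were left after the free RNA was subtracted. Per 100 Pcp4 UMIs there were 13.0 Nrgn UMIs in n09-GC-3 (6.12 to 18.2 over libraries), 1.94 in n11-GC-5 (1.46 to 2.58) and 0.354 in n12-GC-6 (0 to 0.737). Next to these clusters, Nrgn was at 83.0 ± 20.0 CPM in n13-AstrocyteLike, 78.2 ± 62.4 in n14-GC-7 and 41.8 ± 8.68 in n07-GC-2.

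The names of the granule cell clusters were checked against interneuron genes. Gad1, which makes GABA, stood at 1588 CPM in n11-GC-5, 1440 in n10-GC-4 and 2344 in n12-GC-6, but at 285 CPM in n09-GC-3. There Gad1 held 110 UMIs in 273 cells, beside 78 UMIs in 219 red blood cells, so per cell it was close to a background level. Gad2, the other GABA enzyme, was at 457 CPM in n11-GC-5, 304 in n10-GC-4 and 482 in n12-GC-6 but at 46.8 in n09-GC-3, and Slc32a1, the vesicular GABA transporter, was at 222 to 356 CPM in all 4. Of the 3 granule cell markers on the list, Meis2, a transcription factor, was at 1628 to 2385 CPM in all 4 clusters. The enkephalin precursor Penk was at 319 CPM in n11-GC-5 and 177 in n12-GC-6 but at 29.2 in n10-GC-4 and 16.7 in n09-GC-3, beside 15.6 in EC1. Tpbg was at 410 CPM in n12-GC-6 and 104 in n10-GC-4 but at 18.4 in n11-GC-5 and 10.2 in n09-GC-3, beside 25.6 in EC1. The markers of immature neurons did not go one way, since in n09-GC-3 Sox11 was the highest of the 4 clusters with 232 CPM and Dcx the lowest with 134, while Sox4 was 271 there and 349 in n10-GC-4.

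To ask how the genes differ along the maturation of adult-born neurons, the immature cluster n04-Immature was set beside the axes that the study drew from it, axis A with 8 clusters of granule and periglomerular cells and axis B with 3 clusters (n09-GC-3, n07-GC-2 and n06-Transition). Pcp4 held 2747 and 2781 CPM on axis A in control, 2667 and 3116 in occluded and 3648 and 3680 in trained libraries, against 754 and 439, 451 and 374, and 765 and 447 CPM in n04-Immature. On axis A both trained libraries lay above the others, an order whose share over all genes was not counted. Every library was higher on both axes than in n04-Immature. The axes are sums, and n11-GC-5 held 25157 of the 36063 Pcp4 UMIs of axis A. In n03-GC-1, n05-PGC-2 and n02-PGC-1 of that axis the mean was 481, 447 and 377 CPM, not above the 538 CPM of n04-Immature. On the log2 scale, with 1 CPM added, the difference of Pcp4 was 2.57 ± 0.46 (axis A) and 1.44 ± 0.29 (axis B). For Pcp4l1 the differences were 3.03 ± 0.53 (axis A) and 1.70 ± 0.40 (axis B).

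Nrgn was higher by 1.54 ± 0.46 (axis A) and 1.59 ± 0.36 (axis B). On axis A, 489 of its 621 UMIs came from n11-GC-5. In n12-GC-6, n10-GC-4, n03-GC-1, n02-PGC-1, n05-PGC-2 and n08-PGC-3 its mean was 9.41 to 16.7 CPM, not above the 17.8 CPM of n04-Immature. With the free RNA subtracted, Pcp4 was at 78.4 ± 65.4 CPM in n04-Immature, against 2676 ± 420 on axis A and 587 ± 124 on axis B. Pcp4l1 in n04-Immature was at -2.09 ± 14.4 CPM, against 554 ± 16.9 on axis A and 99.3 ± 19.4 on axis B. In n04-Immature Pcp4l1 was therefore not detectable above free RNA, whereas Pcp4 was above it in 6 of 6 libraries. Nrgn with the free RNA subtracted was 3.81 ± 4.58 CPM in n04-Immature, 40.2 ± 11.2 on axis A and 29.9 ± 12.5 on axis B.

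**Figure D3:**
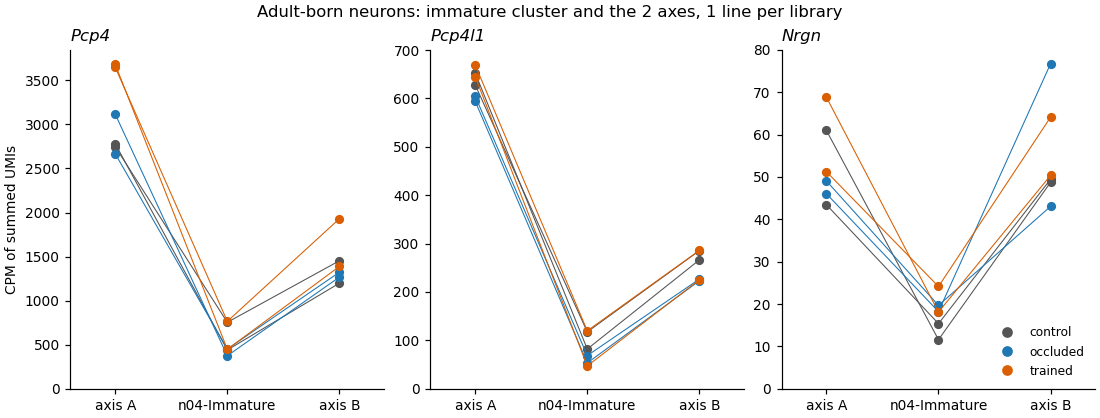
CPM of Pcp4, Pcp4l1 and Nrgn (y axes, each with its own range) in n04-Immature and in the summed clusters of axis A and axis B (x axis), with 1 line for each library. All 6 lines rise from n04-Immature to both axes for each gene, to 2667 to 3680 CPM on axis A for Pcp4. The axes are sums, and for Pcp4 and Nrgn not every cluster of axis A lay above n04-Immature.

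A list of 30 other genes of calmodulin signaling gives the setting. On axis A, 22 of 30 list genes (73.3%) were higher than in n04-Immature in 6 of 6 libraries and 5 (16.7%) were lower, with a median log2 difference of 0.68. Of all 9563 genes that reached 10 CPM on the axis or in n04-Immature, 36.8% were higher and 24.2% lower, with a median of 0.10 (here with 10 CPM added before the log). On axis B, 17 of 28 (60.7%) were higher and 7 lower, with a median of 0.88, beside 39.5% and 0.14 for 9917 genes. Subunits of calmodulin kinase II were among the higher genes, with Camk2a at 1.76 (with 1 CPM added, as below) on axis A and 2.88 on axis B and Camk2b at 2.14 and 2.58. The small calmodulin binders other than the 3 genes were among the lower ones, with Gap43, which is known from growing axons, at -0.56 and -1.71 and Marcksl1 at -1.57 and -3.48. Calm2, a calmodulin gene, was higher on axis A (1.35) and near 0 on axis B (0.08).

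The genes most like each member over the 18 neuronal clusters were found among 4010 genes by the Pearson correlation of log2 levels. For Pcp4 they included Btbd3 (r = 0.832), Dync1i1 (0.827), Ncdn (0.819) and Map2k1 (0.814), the last of which is the kinase MEK1. For Pcp4l1 they were Avpi1 (0.804), Dlg4 (0.768), Hspa2 (0.751), Hist1h2bc (0.746) and Fam207a (0.740). Dlg4 encodes the postsynaptic scaffold PSD-95, and Hist1h2bc had r = -0.082 over all 40 clusters. For Nrgn they were Necab2 (0.887), a neuronal calcium-binding protein, Itgb8 (0.782), Igfbp6 (0.757), Limd2 (0.748) and Mylk (0.708), the calmodulin-dependent kinase of myosin light chain. Over all 40 clusters r was 0.616 to 0.882 for the genes named for Pcp4 and 0.449 to 0.669 for the rest of those for Pcp4l1. For those of Nrgn it was 0.847, 0.23, 0.279, 0.509 and 0.312 in the order given. Between the members, over the 18 neuronal clusters, r was 0.596 for Pcp4 and Pcp4l1, 0.555 for Pcp4 and Nrgn and 0.265 for Pcp4l1 and Nrgn. The points share libraries and free RNA, and these values are a description.

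In single cells thinned to 500 UMIs, Pcp4 and Pcp4l1 were found together in 577 of 1669 cells of n11-GC-5, where the product of their shares within each library gives 552.9, and in 106 of 237 cells of n12-GC-6 against 102.6. The count was above the product in 6 of 6 libraries in both. Other clusters went either way. In n17-M/TC-3 the count was 43 against 30.1, also above in 6 of 6 libraries. In n10-GC-4 it was 24 of 234 cells against 28.6, above the product in 1 of 6 libraries. It was 21 against 25.02 in n08-PGC-3 and 14 against 17.98 in n05-PGC-2, above in 2 of 6 libraries in each. Over all 16302 adult-born cells the count was 1224 against 874.9, which joins clusters of different levels. Pcp4l1 and Nrgn were found together in 30 cells of n11-GC-5 against 39.5, and above the product in 2 of 6 libraries.

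To ask whether odor experience moved the genes within a cluster, UMIs were summed per cluster and library and the groups compared with edgeR's quasi-likelihood test, with Benjamini-Hochberg adjustment over all genes of the cluster. Of the 18 neuronal clusters, 16 had at least 10 cells in every library, and Pcp4 passed the filter on low counts in 16 of them, Pcp4l1 in 15 and Nrgn in 6, which makes 37 tests in each comparison. Nrgn was thus tested only where its counts were highest. In n09-GC-3, where Nrgn held 79 UMIs in all, it was lowest in the control libraries. It could pass the filter there through the occluded and trained libraries, so its values in this cluster are not read as a change. The 2 mitral and tufted cell clusters n15-M/TC-1 and n16-M/TC-2 were not tested.

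With occlusion, 1 of 37 tests passed the adjusted threshold of 0.05 (over all genes and clusters 0.11%), which was Pcp4 in n17-M/TC-3, and 6 had an unadjusted p under 0.05 (over all 5.29%). In direction, 28 of 37 were lower than in control. DESeq2 also called 1. In n04-Immature, Pcp4 differed by -0.57 (SE 0.22) and Pcp4l1 by -0.77 (SE 0.29), and of the alternatives run both passed without trained replicate 1, without trained replicate 2 or with no filter on low counts. With the free RNA described above subtracted, n04-Immature held -2.09 ± 14.4 CPM of Pcp4l1 and 78.4 ± 65.4 of Pcp4. How far its differences go with the free RNA was not tested. The median log2 difference was -0.15 for Pcp4 over 16 clusters, -0.24 for Pcp4l1 over 15 and -0.19 for Nrgn over 6, beside -0.0013 for all genes. In the 3 clusters with the most Pcp4 the difference was -0.01 (SE 0.09) in n11-GC-5, -0.31 (SE 0.35) in n10-GC-4 and 0.13 (SE 0.15) in n12-GC-6.

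With training against control, none of the 37 tests passed (over all 0.0565%) by edgeR's quasi-likelihood test or DESeq2, and 7 had an unadjusted p under 0.05 (over all 5.4%), all of them higher in trained libraries. These were Pcp4 in 6 clusters and Nrgn in n09-GC-3, the latter with the limit of the filter given above. The median difference of Pcp4 was 0.28, with higher values in 15 of 16 clusters, while that of Pcp4l1 was -0.06, with 7 higher and 8 lower. Pcp4 in n12-GC-6, which did not overlap between the groups, had a log2 difference of 0.56 (SE 0.15) and an adjusted p of 0.0917 by edgeR's quasi-likelihood test, and it passed when occluded replicate 1 (0.57, adjusted p 0.00839), occluded replicate 2 (0.56, 0.00238) or trained replicate 2 (0.60, 0.0274) was left out. In n18-EPL-IN the difference was 1.15 (SE 0.35) with an adjusted p of 0.311 by the same test.

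With training against occlusion, 1 of 37 tests passed (over all 0.19%), again Pcp4 in n17-M/TC-3, and 10 had an unadjusted p under 0.05 (over all 7.18%), of which 9 were Pcp4. DESeq2 called 1. In direction, 32 of 37 were higher in trained libraries, and the median difference was 0.37 for Pcp4, 0.17 for Pcp4l1 and 0.42 for Nrgn. This comparison and the other 2 share libraries and are not independent of each other.

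**Figure D4:**
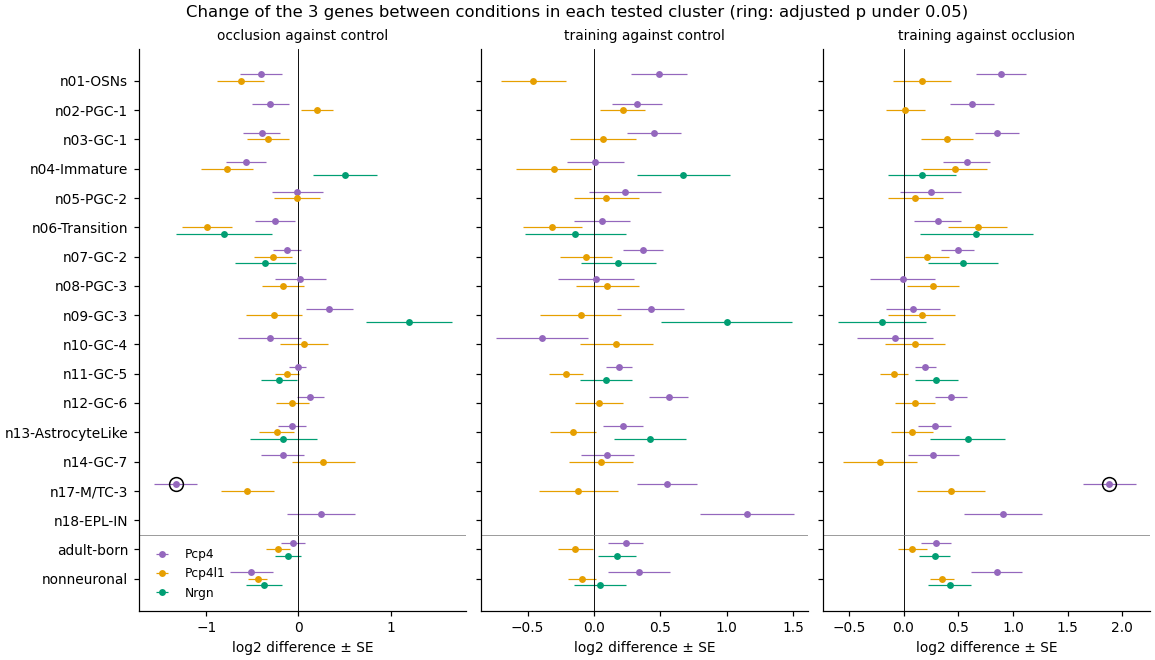
Log2 difference ± SE of Pcp4, Pcp4l1 and Nrgn (x axes) in each of the 16 tested neuronal clusters and in the adult-born and nonneuronal sums (y axis), for the 3 comparisons. Pcp4 in n17-M/TC-3 is the only value ringed for an adjusted p under 0.05, at -1.33 with occlusion against control and 1.88 with training against occlusion.

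The level in nonneuronal cells differed in the same direction. In the sum of the nonneuronal cells Pcp4 differed by -0.51 (SE 0.23) with occlusion, 0.34 (SE 0.23) with training and 0.85 (SE 0.24) with training against occlusion, the last with an adjusted p of 0.243 by edgeR's quasi-likelihood test. With the replicate number as a block the last was 0.82 and passed, with an adjusted p of 0.0351 by the same test. There it was 461 and 375 CPM in control, 335 and 252 in occluded and 676 and 382 in trained libraries, on the scale of the test, so trained replicate 1 was the highest and occluded replicate 2 the lowest. Pcp4l1 in the same sum, which holds the vessel clusters, differed by -0.44 (SE 0.11), -0.09 (SE 0.10) and 0.35 (SE 0.11). The clusters whose Pcp4 was at the level of free RNA had such differences too, with 0.89 (SE 0.23) in n01-OSNs and 0.85 (SE 0.20) in n03-GC-1 for training against occlusion, and both passed with the replicate number as a block (adjusted p of 0.0238 and 0.000531 by edgeR's quasi-likelihood test). These differences moved with the trained libraries, since without trained replicate 1 they were 0.64 in n01-OSNs, 0.18 in n03-GC-1 and 0.38 in the nonneuronal sum, and without trained replicate 2 they were 1.09, 1.24 and 1.21 and all 3 passed. In n03-GC-1 the difference also passed without occluded replicate 1 (1.11). How much of the differences in clusters other than n17-M/TC-3 goes with the free RNA was not tested, and n17-M/TC-3 is set against the nonneuronal sum below.

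In the sum of the 12 adult-born clusters no member passed in any of the 3 comparisons, by edgeR's quasi-likelihood test or by DESeq2, and 1 of the 9 tests had an unadjusted p under 0.05. Over all genes, 0.0788% passed with occlusion, 0.0551% with training and 1.59% with training against occlusion. Pcp4 was 1976 and 1826 CPM in control, 1704 and 1953 in occluded and 2515 and 1977 in trained libraries, and its log2 differences were -0.06 (SE 0.13), 0.24 (SE 0.13) and 0.30 (SE 0.13). The last was 0.10 without trained replicate 1, 0.19 without occluded replicate 1 and 0.46 without trained replicate 2. Those of Pcp4l1 were -0.22, -0.14 and 0.08, and those of Nrgn -0.11, 0.17 and 0.29. In such a sum, a change in the mix of clusters and a change within cells cannot be told apart. No member passed the test of whether the difference between axis B and axis A depended on the condition, with 0 of 9 tests called by edgeR's quasi-likelihood test or by DESeq2 and 0 with an unadjusted p under 0.05, beside 0.0362%, 0% and 0.0724% of all genes.

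By the test as first described, with no replicate block, Pcp4 in n17-M/TC-3 was the only value of the 3 genes to pass a test between conditions. This cluster held 927 cells, between 96 and 236 per library, and had the markers of mitral and tufted cells Slc17a7 (2038 CPM), the vesicular glutamate transporter, and Cdhr1 (2115 CPM), a cadherin. Pcp4 was 1344 and 964 CPM in control, 583 and 394 in occluded and 1789 and 1618 in trained libraries. The 3 groups did not overlap, an order not counted over all genes. It fell with occlusion by 1.33 on the log2 scale (SE 0.24), with an adjusted p of 0.00237 by edgeR's quasi-likelihood test, beside 0.501% of all genes called in this cluster, and it was higher with training than with occlusion by 1.88 (SE 0.24), with an adjusted p of 1.08e-05 by the same test, beside 0.159%. With training against control the difference was 0.55 (SE 0.23), with an adjusted p of 0.950 by the same test, and it was 0.32 without control replicate 2 and 0.82 without control replicate 1. Without control replicate 1 the first call was lost, with -1.06 and an adjusted p of 0.0799.

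The interactions below were added after Pcp4 had passed in n17-M/TC-3 in the same libraries, and their adjusted p do not count that choice. In the adult-born sum, n11-GC-5 held 25157 of the 47908 Pcp4 UMIs. The change of Pcp4 in n17-M/TC-3 less that of this sum was -1.32 (SE 0.21) with occlusion. It was 1.57 (SE 0.21) with training against occlusion. The adjusted p of these interactions were 6.75e-07 and 9.66e-10 by edgeR's quasi-likelihood test (0.154% and 0.0567% of all genes called). Without control replicate 1 the first of these was -1.11 with an adjusted p of 0.0598. The nonneuronal sum holds free RNA at the depth of its own cells. The depth of the n17-M/TC-3 cells differed between groups, as given below, and the interaction has no correction for it. Against this sum the interaction was -0.86 (SE 0.23) with occlusion and 1.09 (SE 0.24) with training against occlusion. Neither passed, with adjusted p of 0.0995 and 0.0575 by the same test (0.132% and 0% of all genes called). The second passed without control replicate 1 (1.11, adjusted p 0.0111 by the same test), control replicate 2 (1.09, 0.0323) or trained replicate 1 (1.38, 0.0126), but not without occluded replicate 1 (1.19, 0.158), occluded replicate 2 (1.02, 0.150) or trained replicate 2 (0.83, 0.814). The first did not pass without any 1 library, with -0.97 to -0.75 and, without control replicate 1, an adjusted p of 0.816 by the same test.

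A few cells held much of the Pcp4 of n17-M/TC-3. Cells with 5 or more Pcp4 UMIs numbered 9 and 4 in control, 9 and 0 in occluded and 8 and 6 in trained libraries, 36 in all, which is 3.88% of the cells and 51.5% of the Pcp4 UMIs. A single cell of control replicate 1 held 111. In the remaining cells there were 0.881 and 0.731 Pcp4 UMIs per cell in control, 0.755 and 0.661 in occluded and 1.12 and 0.767 in trained libraries, beside a free RNA of 0.916 and 0.711, 0.783 and 0.444, and 1.10 and 0.794. These cells lay above the free RNA of their library in 3 libraries and below it in the other 3, and the widest gap was that of occluded replicate 2. Leaving out cells by their own Pcp4 count lowers the mean, while the free RNA had no such cut. The nearness of the values is therefore partly set by the choice of cells. With all cells, Pcp4 per cell was 1.85 and 1.30, 1.47 and 0.661, and 2.10 and 2.55, and on this scale occluded replicate 1 lay above control replicate 2.

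**Figure D5:**
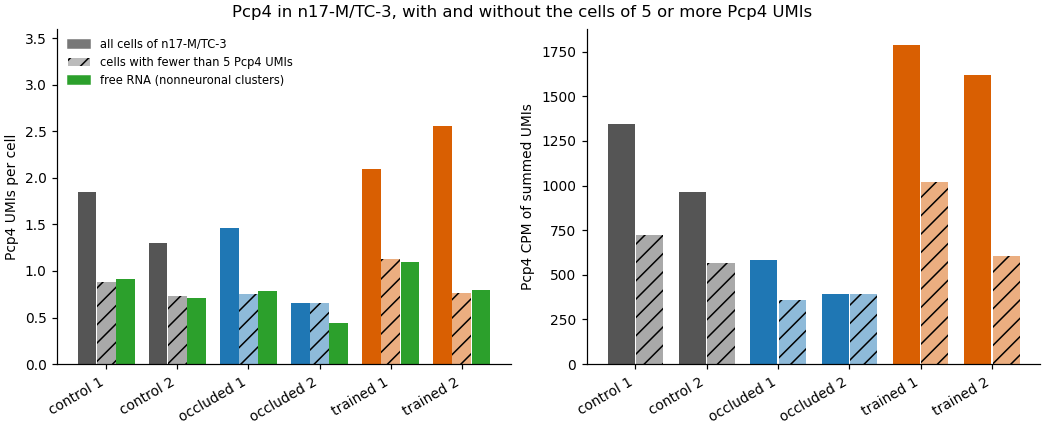
Pcp4 in n17-M/TC-3 for each library (x axes), as UMIs per cell in all cells, in cells with fewer than 5 Pcp4 UMIs and as free RNA (left), and as CPM of the sum with and without the cells of 5 or more Pcp4 UMIs (right). Without these cells the UMIs per cell are 0.661 to 1.12. Leaving out cells by their own Pcp4 count lowers this mean, and the free RNA had no such cut.

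The depth of these cells also differed between groups, with a mean of 1375 and 1352 UMIs per cell in control, 2516 and 1679 in occluded and 1172 and 1577 in trained libraries, so that the same number of Pcp4 UMIs per cell is a lower CPM in the occluded libraries. Without the 36 cells the log2 ratio of mean CPM was -0.78 with occlusion and 1.12 with training against occlusion, beside -1.24 and 1.80 with them, values with no test. The part of depth in the difference and in the interaction with the nonneuronal sum was not tested.

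In CPM, summed over cells of all libraries, the 36 cells differed from the others in markers of the cluster. None of the 36 came from occluded replicate 2. Slc17a7 was 928 CPM in them and 2203 in the other cells of n17-M/TC-3 and Cdhr1 1160 and 2245. The transcription factors of glutamatergic neurons were at higher levels, with Tbx21 at 45.4 and 22.9, Eomes at 267 and 177 and Tbr1 at 277 and 38.7 CPM. As counts, Slc17a7 held 184 UMIs in the 36 cells and 2787 in the other 891, and Gad1 held 49 and 300. Per cell neither gene was lower in the 36. These cells were deeper, as given below, so counts per cell cannot show that Slc17a7 was kept. A Slc17a7 UMI was found in 69.44% of the 36 cells and 77.44% of the others, and a Gad1 UMI in 33.33% and 26.04%. Gad1 was 247 and 237 CPM, beside 1586 in n11-GC-5, Gad2 75.6 and 47.4, beside 456, and Slc32a1 45.4 and 41.1, beside 262. Pcp4l1 was 323 CPM in the 36 cells and 166 in the others. The median depth of the 36 cells was 2312.5 UMIs against 855, and a choice by a count of Pcp4 UMIs itself favors deep cells. The inhibitory markers Gad1, Gad2 and Slc32a1, none of which was at 0 in the cluster, summed to 370 and 279 CPM in control, 188 and 197 in occluded and 493 and 667 in trained libraries, so they too were lowest in the occluded and highest in the trained libraries, and their part in its change was not tested. The 4 mitral and tufted cell markers summed to 4759 and 4976, 3776 and 4078, and 4515 and 4002 CPM. Of the markers listed for cortical projection neurons, Neurod6 was at 1.8 CPM in the cluster, but Tbr1 was at 73.0 and Slc17a7, which is on both lists, at 2038 CPM.

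Of the calmodulin list, all 30 genes were tested in 1 or more clusters, in 300 tests per comparison. No test passed with occlusion or with training against control by edgeR's quasi-likelihood test, with 16 and 11 at an unadjusted p under 0.05, beside 5.29% and 5.4% of all tests. With training against occlusion 1 of 300 passed and 18 were under 0.05, beside 7.18% of all tests. DESeq2 called 0 in each of the 3 comparisons. The 1 call was Gap43 in n11-GC-5, which was 73.8 and 73.7 CPM in control, 102 and 124 in occluded and 53.3 and 43.0 in trained libraries. It was lower with training than with occlusion by a log2 difference of -1.22 (SE 0.23, adjusted p 0.0103 by edgeR's quasi-likelihood test), in the cluster where Pcp4 was most abundant and its own difference was 0.20 (SE 0.09). The medians of the list were 0.00, 0.03 and 0.04 in the 3 comparisons.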

How the data were processed

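RNA of single cells was measured in 6 libraries. Per the submitters' processing notes, reads were processed with Cell Ranger 2.0.0 and Seurat 2.2.1 on mm10. The authors deposited the raw UMI counts of every gene in each barcode, and annotations giving the library, the cluster and, as a fraction, the mitochondrial UMIs of each cell, and they state that doublets were taken out. Here counts were summed per cluster and library. edgeR 4.0.16 (quasi-likelihood test, two-sided, TMM factors, filterByExpr, all 6 libraries in 1 fit, Benjamini-Hochberg adjustment over the genes of a cluster, threshold 0.05) was the test, with DESeq2 1.42.0 as an alternative, and the edgeR fit was tested on simulated data. Interactions had the library as a block. Cells were thinned to 500 UMIs with a fixed seed. Likeness used log2(mean CPM + 10) among genes of at least 100 CPM in 1 or more neuronal clusters. The free RNA of a library was the median over 18 nonneuronal clusters, a rule chosen after seeing the data, like the choice of cells with 5 or more Pcp4 UMIs. The genes named are the 3 members, the 5 genes most like each, and those called of the calmodulin list, with a few of its genes on the axes chosen after their values were seen. A few genes that the rule names are not reported here. The members and lists were chosen with earlier results of these data known. Libraries were pools of mice, whether control and occluded libraries share mice is not settled by the sources used here, and p-values measure the spread between libraries. Counting error is limited by depth, and by 96 cells in the smallest library of n17-M/TC-3.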

Additional observations from a re-analysis of the deposited data

Results flagged for a closer look

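The change of Pcp4 in n17-M/TC-3 differed from that in the summed adult-born clusters under the same contrast. Tested as an interaction with edgeR's quasi-likelihood test, the log2 difference in n17-M/TC-3 less that in the adult-born sum was -1.3201 with occlusion against control (SE 0.21, adjusted p 6.75e-07) and 1.5674 with training against occlusion (SE 0.21, adjusted p 9.66e-10). Both contrasts share the occluded libraries. The cluster was chosen after Pcp4 had passed there in the same libraries, and the adjusted p do not count that choice. Against the nonneuronal sum, taken for free RNA with no correction for the depth of cells, the interactions were -0.86 and 1.09. Neither of these passed (adjusted p 0.0995 and 0.0575 by the same test). Without control replicate 1 the occlusion interaction against the adult-born sum was -1.11. Pcp4 was lower in both occluded libraries of n17-M/TC-3 than in its 4 other libraries, while in the adult-born sum the occluded libraries overlapped with the control libraries.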

How the results depend on the processing

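Pcp4 in n17-M/TC-3 kept its direction with occlusion against control and with training against occlusion under each alternative run. Of 37 tests per comparison, the calls of the 3 genes with occlusion against control (1) came to 3 with no filter on low counts and to 0 to 3 without 1 library, with 0 without control replicate 1 and 3 without trained replicate 1 or 2, the added calls being Pcp4 (-0.57 to -0.55) and Pcp4l1 (-0.78 to -0.76) in n04-Immature. With training against control (0) they came to 1 with library totals, without mitochondrial and hemoglobin genes or with only the 2 groups compared, each time Pcp4 in n12-GC-6, and to 0 to 2 without 1 library, with 2 without trained replicate 2, Pcp4 in n12-GC-6 and Pcp4 in n10-GC-4, the latter lower with training (-1.43, adjusted p 0.0235 by edgeR's quasi-likelihood test). Without trained replicate 1 the call was Pcp4l1 in n04-Immature (-1.13). With training against occlusion (1) they came to 3 with no filter, 3 with the replicate block, 2 with cells of at least 1000 UMIs, and 1 to 6 without 1 library, with 6 without trained replicate 2, 3 without occluded replicate 1 and 2 without occluded replicate 2. The added calls, all higher with training, were Pcp4 in n03-GC-1, n04-Immature, n12-GC-6, n13-AstrocyteLike, n01-OSNs or n02-PGC-1 and, without trained replicate 2, Pcp4l1 in n04-Immature. The cause was not tested. In n04-Immature, Pcp4l1 was at the level of free RNA, with -2.09 ± 14.4 CPM left after its subtraction. The calls added by the replicate block were Pcp4 in n01-OSNs and n03-GC-1, where Pcp4 was at the level of free RNA, and the block also gave Pcp4 in the nonneuronal sum 0.82 (adjusted p 0.0351 by edgeR's quasi-likelihood test). With 2 pairs per comparison the replicate number is a number and the sex of the pool, and the deviations of same-numbered libraries correlated by 0.199 to 0.272 in the adult-born sum, 0.238 to 0.365 in the nonneuronal sum and 0.0639 to 0.146 in n07-GC-2. Calls in the adult-born sum and those of the interaction of condition and axis were 0 throughout (0 to 0 without 1 library). In the control libraries alone, n11-GC-5 ranked 2 for Pcp4, and n09-GC-3 ranked 2 for Nrgn with 119 CPM, as it did by the share of cells with a UMI at 500 UMIs. Without 1 library, Pcp4 in n11-GC-5 was 6715 to 7029 CPM, Pcp4l1 in n12-GC-6 1381 to 1459 and Nrgn in n09-GC-3 192 to 237, and all 3 stayed at rank 1. With at least 1000 UMIs per cell, n13-AstrocyteLike, n14-GC-7 and n18-EPL-IN, and with at most 20% mitochondrial UMIs, n01-OSNs and n14-GC-7, were left out for too few cells. Subtracting free RNA, leaving out the cells of 5 or more Pcp4 UMIs and the interactions with n17-M/TC-3 were added after seeing the data. Nrgn rests on 5 to 489 UMIs per neuronal cluster named for it, so that smaller differences than those given were not detectable at this depth.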
